A study of Mus musculus with 29 samples.

Results

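The first response of microglia to bacterial lipopolysaccharide (LPS) was read from 9 of the 29 libraries of the series, 4 in the group PL and 5 in the group PP, over all genes. Microglia are the resident macrophages of the brain, and the question was how they answer LPS when neither an earlier LPS injection nor a depletion had come before. All 9 libraries came from male C57BL/6J mice aged 15 weeks. At 10 weeks every mouse of both groups had a sham injection of buffered saline into the peritoneum, and in the following weeks all were given a cyclodextrin vehicle by gavage for 5 days, in place of the CSF1R inhibitor that other groups received. At the second injection, 5 weeks after the first, PL mice received 1 mg/kg of Escherichia coli LPS and PP mice saline again, and brains were collected 3 h later. Microglia were sorted by flow cytometry as single live cells, CD11b-high, CD45-intermediate and Ly6C-negative, a gate that leaves out most inflammatory monocytes, which carry Ly6C. Their RNA was sequenced, 1 library per sample.

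LPS is sensed by Toll-like receptor 4 together with MD-2 and CD14. The adaptors MyD88 and TRIF pass the signal on, MyD88 mainly to NF-kB and MAP kinases and TRIF mainly to the interferon regulatory factors. Induced genes follow in waves: immediate early factors, cytokines and chemokines, genes that answer secreted interferon, and brakes that limit the first waves. LPS given into the peritoneum also raises cytokines and glucocorticoids in blood, so that microglia are exposed to more than LPS itself.

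Counts per library totalled 7397399 to 8606743 in PP and 5806269 to 9056425 in PL. Levels are given in CPM, counts scaled to a common library size after TMM normalization, and per-library values are listed in the order of PP replicates 1 to 5 and PL replicates 1 to 4. A gene was called when its adjusted p from edgeR's quasi-likelihood test, with Benjamini-Hochberg adjustment over the 16632 genes tested, was under 0.05. Log2 fold changes are PL against PP and stand with their standard error (SE). Nothing in the labels says whether samples came from separate animals, and the p-values cover only the variation among these libraries, which may be technical. In bulk RNA, fewer cells of a type and less RNA per cell cannot be told apart. The sorted cells carried microglial markers: Csf1r, the receptor of colony-stimulating factor 1, was at 5856 ± 330.1 CPM in PP and 4844 ± 720.3 CPM in PL (SD), Cst3, the gene of cystatin C, at 35150 ± 2111 CPM in PP and 35280 ± 3229 CPM in PL, and neither passed the test between the groups. Csf1r is 1 of 10 genes of the microglial marker list, of which 7 fell after LPS, and Cst3 is not in that list.

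After LPS 2369 genes rose (14.2% of those tested) and 1981 fell (11.9%). The rises were larger than the falls: 569 genes (3.42%) were called at least 4-fold higher and 207 (1.24%) at least 4-fold lower, and at 16-fold or more there were 167 (1%) against 19 (0.114%). The 5 PP and the 4 PL values did not overlap in 3633 of all genes tested (21.8%), and in 3187 of the 4350 called. The genes called at least 4-fold higher took 0.864% to 0.988% of the counts of each PP library, and 7.84%, 5.33%, 7.62% and 7.32% in PL replicates 1 to 4. The genes called at least 4-fold lower took 0.539% to 0.555% in PP and 0.0832% to 0.106% in PL. The median log2 fold change of all genes was -0.001.

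**Figure D1:**
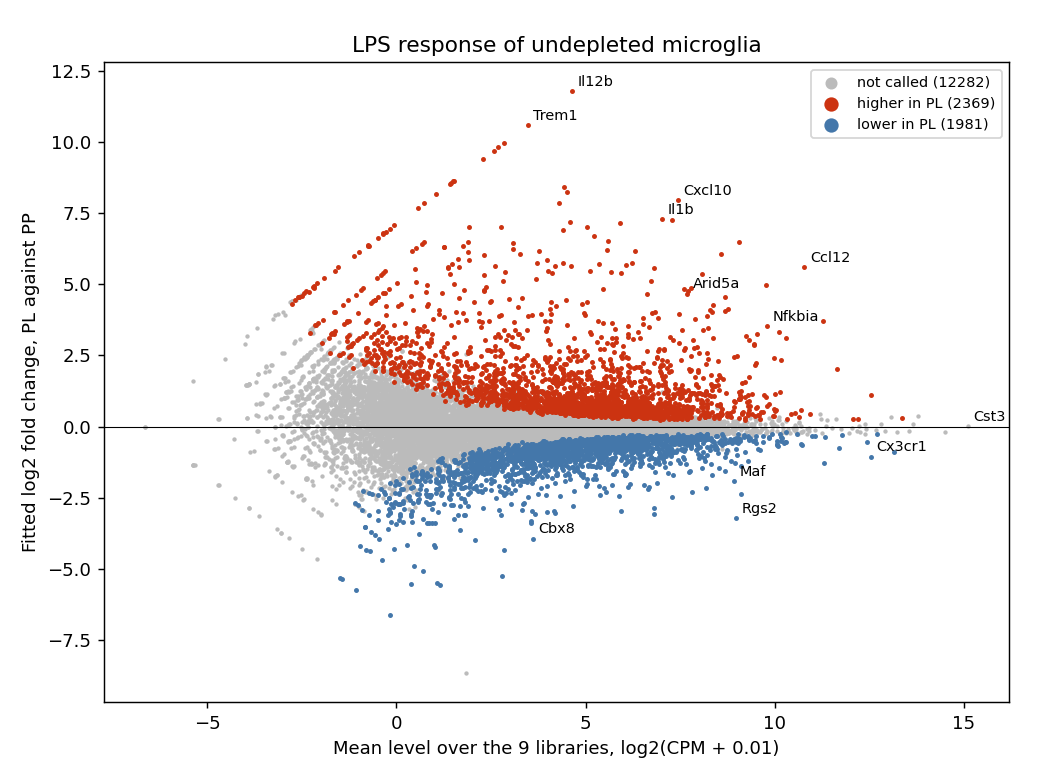
Fitted log2 fold change of PL against PP (vertical axis) against the mean level of each gene over the 9 libraries, as log2(CPM + 0.01) (horizontal axis), 1 point per gene. The 2369 genes called higher reach further from 0 than the 1981 called lower, and the straight line of points at the upper left holds genes without a count in PP.

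Of the 2369 genes called higher, 40 had no count in any of the 5 PP libraries. Such a gene could only be called higher. It was tested only because libraries of other groups held counts of it, so the direction of its call is no result in itself. Il12b (ENSMUSG00000004296, chromosome 11), which encodes the p40 chain shared by interleukins 12 and 23, was at 0, 0, 0, 0 and 0 CPM in PP and 89.1, 18.9, 56.5 and 61.0 CPM in PL. All 4 PL libraries held it, with replicate 2 lowest. Taking 3 counts over the PP group as the level that a count of 0 allows, which covers counting error only, Il12b was at least 745-fold higher in PL. On the same bound Trem1, which amplifies Toll-like receptor signals in myeloid cells, was at least 331-fold higher, with 24.8, 28.7, 23.1 and 23.7 CPM in PL, where the 4 libraries lay close together. Sphk1, a kinase that makes sphingosine 1-phosphate, was at least 214-fold higher, Lrg1, a secreted leucine-rich glycoprotein, at least 192-fold, and Clec4e, the receptor Mincle, at least 177-fold. The neutrophil-attracting chemokine gene Cxcl2 was at least 145-fold higher, with 11.8, 2.50, 18.2 and 11.2 CPM in PL and replicate 2 again lowest. P2ry2, a receptor for ATP and UTP, Adm, the gene of the vasodilator adrenomedullin, the transcript Gm16175 and the chemokine receptor gene Ccr7 completed the 10 of these genes with the highest levels in PL, at least 84.8-fold, 83.5-fold, 80.0-fold and 78.9-fold higher.

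The promoters of 3 genes with large rises are shown because each holds the NF-kB consensus motif near its start. The sequences are the 250 bases before a start of the gene in RefSeq (build GRCm38.p6), matched by symbol, plus strand, with the motif in capitals on either strand. Sphk1 has 5 promoters there, of which the first with a match is shown, and Cxcl2 and Tnip3 have 1 each. Genes with larger rises whose promoters were absent or held no match in these bases were passed over. The promoter of Cbx8, taken from the largest falls without regard to the motif, held 0 matches in these 250 bases. The 3 rises and Cbx8 were thus not chosen alike. Sphk1 lies at chr11:116530850-116531099, Cxcl2 at chr5:90903649-90903898 and Tnip3, which encodes an inhibitor of NF-kB signalling, at chr6:65590148-65590397.
Sphk1: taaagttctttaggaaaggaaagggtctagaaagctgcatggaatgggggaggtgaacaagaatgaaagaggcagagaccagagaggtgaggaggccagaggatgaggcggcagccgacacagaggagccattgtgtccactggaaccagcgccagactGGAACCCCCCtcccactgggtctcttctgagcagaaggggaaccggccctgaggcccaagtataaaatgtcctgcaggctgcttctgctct
Cxcl2: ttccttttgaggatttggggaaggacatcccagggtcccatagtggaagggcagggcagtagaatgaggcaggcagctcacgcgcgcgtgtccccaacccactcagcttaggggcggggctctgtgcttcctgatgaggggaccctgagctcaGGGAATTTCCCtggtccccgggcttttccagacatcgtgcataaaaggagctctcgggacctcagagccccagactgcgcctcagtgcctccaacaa
Tnip3: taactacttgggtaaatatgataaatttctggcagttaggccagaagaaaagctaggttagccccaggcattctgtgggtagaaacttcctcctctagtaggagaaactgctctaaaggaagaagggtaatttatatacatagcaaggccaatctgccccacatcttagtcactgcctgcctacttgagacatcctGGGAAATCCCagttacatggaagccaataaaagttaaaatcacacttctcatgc
The match begins 91 bases before the start in Sphk1 and 54 in Tnip3, and Cxcl2 has a pair of overlapping matches at 97 and 96. Among windows from 250 bases before to 50 after the start, this motif occurred in 16.9% of the 450 windows of 354 matched genes called at least 4-fold higher. It occurred in 7.2% of the 125 windows of 95 matched genes called at least 4-fold lower, and in 10.3% of the 13626 windows of the 10615 matched genes tested. These shares describe letters in a window and do not show binding.

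**Figure D2:**
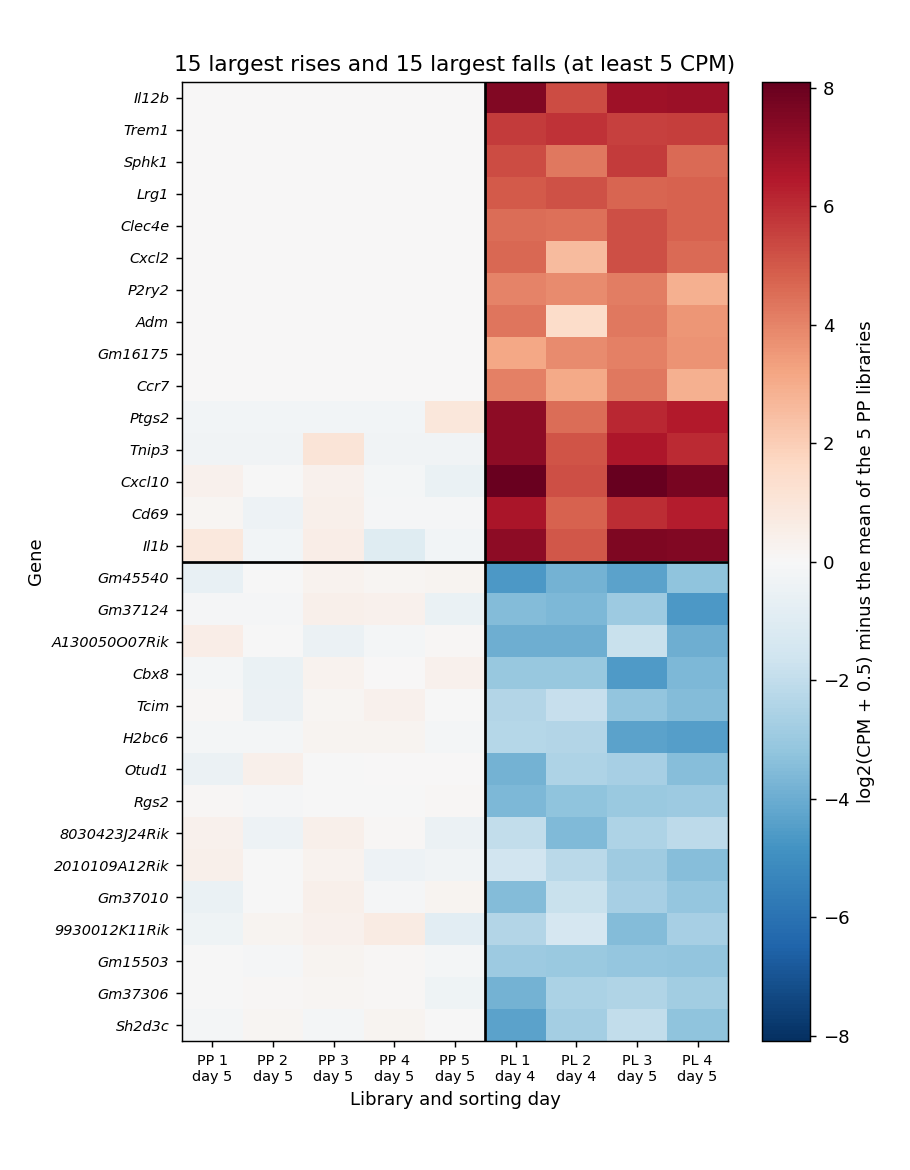
Difference of log2(CPM + 0.5) from the mean of the 5 PP libraries (colour) for the 15 genes with the largest rises and the 15 with the largest falls that had at least 5 CPM in the higher group (rows), in each PP and PL library with its sorting day (columns). All 4 PL libraries share the direction in each row, and replicate 2 is paler than the others for Adm, Cxcl2, Cxcl10 and Il1b.

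Cytokine genes rose, and the inflammasome genes measured with them mostly did not pass the test. In the interleukin 1 list 5 of 13 tested members rose and none fell. Il1b (ENSMUSG00000027398, chromosome 2) was at 3.35, 1.35, 2.66, 0.600 and 1.39 CPM in PP and 320.1, 70.6, 398 and 381 CPM in PL. The groups did not overlap, and PL replicate 2 was lowest by far (log2 fold change 7.28, SE 0.53, adjusted p = 4.04e-11). Il1rn, which encodes the antagonist that blocks the same receptor, rose as steeply (7.15, SE 0.60), from means of 0.921 to 134 CPM. Il1a, already present without LPS, was at 194, 181, 193, 194 and 152 CPM in PP and 1844, 754, 1278 and 1484 CPM in PL (log2 fold change 2.87, SE 0.20, adjusted p = 6.55e-13), again without overlap. Il1r2, the decoy receptor (2.86, SE 0.80), and Casp4, the mouse gene of the caspase that senses cytosolic LPS (2.84, SE 0.19, 13.9 to 20.9 CPM in PP and 77.4 to 144 CPM in PL), rose too. The sensor Nlrp3 (0.14, SE 0.14, adjusted p = 0.482), Casp1 (0.13, SE 0.14, adjusted p = 0.545) and the pore former Gsdmd (0.04, SE 0.13, adjusted p = 0.884) did not pass the test. Without PP replicate 3, the PP library with most Il1r2, the change of that gene was 4.98.

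Of 20 TNF superfamily ligands and receptors, 8 rose and 5 fell. Tnf (ENSMUSG00000024401, chromosome 17) was at 4.34, 4.18, 1.77, 2.88 and 1.13 CPM in PP and 158, 52.2, 203 and 174 CPM in PL (5.68, SE 0.44), with no overlap. Tnfsf9, the ligand of 4-1BB (6.16, SE 0.50), Cd40, a costimulatory receptor (5.87, SE 0.64) and the death receptor gene Fas (3.94, SE 0.50) rose. The lymphotoxin gene Ltb (-1.45, SE 0.37), Tnfsf8 (-1.44, SE 0.44), the receptor genes Tnfrsf17 (-0.79, SE 0.18) and Tnfrsf13b (-0.57, SE 0.12), and Tnfrsf1b, the second TNF receptor (-0.39, SE 0.14), fell. These falls were under 2-fold except in Ltb and Tnfsf8, and the call of Tnfrsf1b was lost when any 1 of 5 libraries was left out.

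Chemokine genes rose without a fall: 8 of 13 CC and 6 of 9 CXC and CX3C members. Ccl12, a monocyte attractant, was at 106, 68.8, 89.0, 73.9 and 64.3 CPM in PP and 5042, 2699, 3971 and 3811 CPM in PL (log2 fold change 5.59, SE 0.27, adjusted p = 4.37e-15). The lowest PL library lay far above the highest PP library. Ccl7 (6.21, SE 0.48), Ccl5 (5.74, SE 0.46), Ccl22 (4.25, SE 1.03) and Ccl4 (4.03, SE 0.32) were the other CC members with the largest rises. Cxcl10, an interferon-inducible attractant of T cells, was at 2.11, 1.48, 2.02, 1.32 and 0.882 CPM in PP and 523, 73.4, 549.8 and 419 CPM in PL (7.95, SE 0.72). Here too the groups did not overlap, and PL replicate 2 stood at 73.4 CPM against 419 CPM or more in the others. Cxcl1 (6.32, SE 0.91) and Cxcl11 (5.55, SE 1.0) rose from means of 0.0504 to 5.27 CPM and 0.0492 to 3.07 CPM. Of the interleukin 6, 10 and 12 families and colony-stimulating factors 7 of 8 rose, among them Il12b, Csf3, which drives neutrophil production (no count in PP, at least 61.5-fold), Osm (2.42, SE 0.17), Il27 (2.40, SE 0.33) and Csf1 (1.56, SE 0.28). Il6 rose less than these, at 18.3, 16.2, 15.9, 14 and 10.1 CPM in PP and 43.6, 33.9, 43.1 and 36.5 CPM in PL (1.40, SE 0.15), again with no overlap. Among 10 growth factor genes, 2 (20%) rose, Hgf (2.60, SE 0.33) and Hbegf (0.96, SE 0.24), and 1 (10%) fell, Tgfa (-0.55, SE 0.13), against 14.2% and 11.9% of all genes. The call of Hbegf was lost without PL replicate 4. The change of Ccl22 was 6.30 without PP replicate 2, which held nearly all its PP counts, and Cxcl1 had PP counts only in replicate 5.

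**Figure D3:**
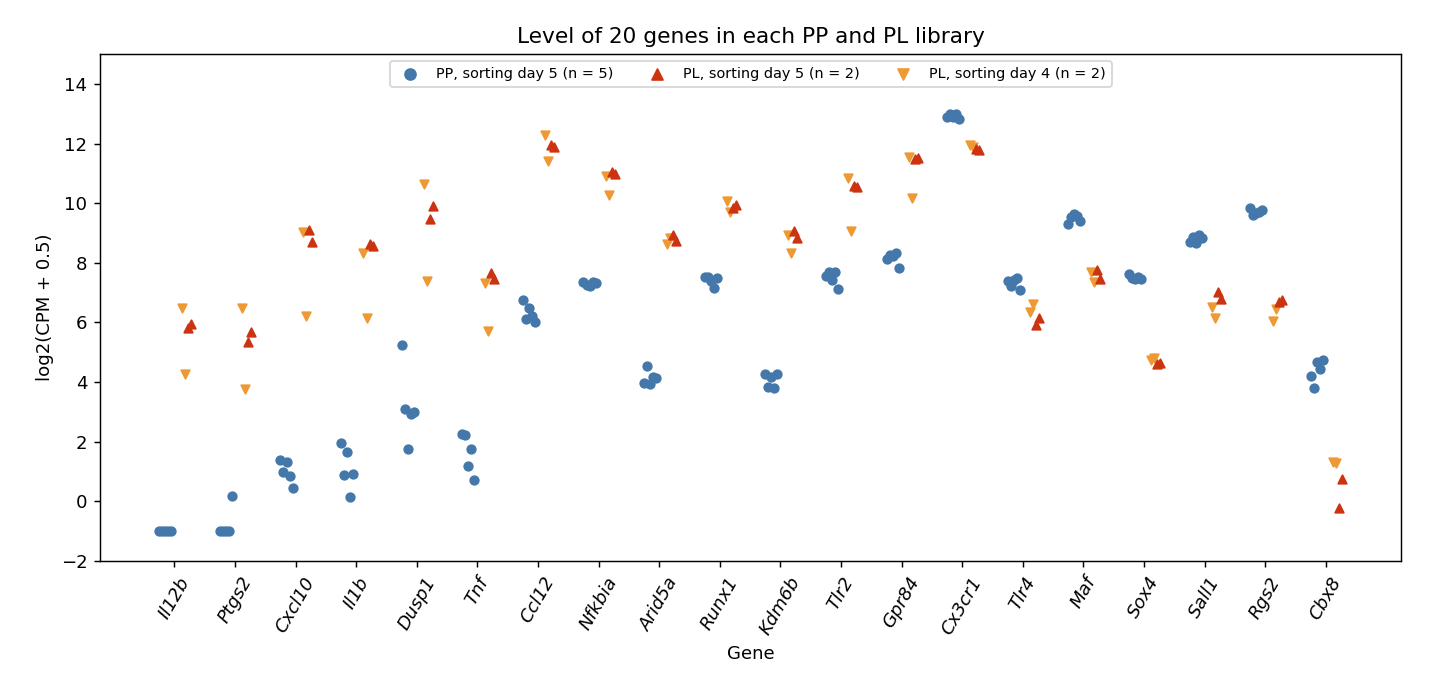
Level of 20 genes as log2(CPM + 0.5) (vertical axis) in each PP library (blue circles) and each PL library, with PL sorted on day 5 as red triangles pointing up and PL sorted on day 4 as orange triangles pointing down. In all 20 genes the PL points stay clear of the PP points, and the lower orange point of Il12b, Ptgs2, Cxcl10, Il1b, Dusp1 and Tlr2 is replicate 2.

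The LPS receptor and its relatives moved in both directions. Of 25 Toll-like receptor, adaptor and IRAK kinase genes 10 rose and 6 fell. Tlr2, the receptor for bacterial lipoproteins, was at 188, 208, 171, 205 and 138 CPM in PP and 1821, 539, 1526 and 1503 CPM in PL (log2 fold change 2.89, SE 0.30, adjusted p = 2.11e-08). Cd14, the co-receptor that hands LPS to Toll-like receptor 4, rose from means of 1361 to 5502 CPM (2.02, SE 0.13), and both adaptor genes, Myd88 (1.98, SE 0.14) and Ticam1, which encodes TRIF (2.03, SE 0.22), rose about equally. Tirap, which bridges to MyD88, rose less (1.30, SE 0.15). Tlr4 (ENSMUSG00000039005, chromosome 4) was at 168, 149, 172, 179.5 and 137 CPM in PP and 81.8, 98, 59.5 and 70.0 CPM in PL and fell (log2 fold change -1.06, SE 0.15, adjusted p = 1.56e-06), with no overlap. The largest fall was in Cd180, which encodes the Toll-like receptor homologue RP105 (-1.97, SE 0.17, 135 to 209 CPM in PP and 38.6 to 48.7 CPM in PL). Tlr5, the flagellin receptor (-1.67, SE 0.29), Tlr12 (-1.13, SE 0.20), Ticam2, the bridge to TRIF (-0.60, SE 0.16), and Irak2 (-0.53, SE 0.18) fell as well, the last with a call that was lost when any 1 of 5 libraries was left out.

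Most genes of the NF-kB module rose: 14 of 18 subunit, IkB and IKK genes rose and none fell, with a median log2 fold change of 1.36 against 0.00 over all genes tested. Nfkbia, whose product IkB alpha retains NF-kB in the cytoplasm, was at 165, 154, 149, 162 and 161 CPM in PP and 1917, 1246, 2098 and 2012 CPM in PL (log2 fold change 3.52, SE 0.12, adjusted p = 1.23e-21). Bcl3, a nuclear IkB protein, was at 0.620, 1.08, 0.506, 1.32 and 0.378 CPM in PP and 56.4, 66.3, 117 and 91.5 CPM in PL (6.70, SE 0.25). The groups were far apart in both genes. Map3k8, the kinase that links NF-kB1 release to ERK (4.84, SE 0.22), Ikbke (3.63, SE 0.89, and 2.95 without PL replicate 3) and the nuclear IkB gene Nfkbiz (3.09, SE 0.39) rose, whereas Tbk1, Ikbkb and Ikbkg were not called, with log2 fold changes of 0.17, 0.07 and -0.25. The NF-kB consensus motif occurred in 8 of the 20 promoter windows of the 13 matched members (40.0%), against 10.3% of all windows.

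Brakes on the response rose alongside. Of 18 ubiquitin and RNA-decay regulators 10 rose and 3 fell. Tnip3 was at 0, 0, 0.759, 0 and 0 CPM in PP and 89.1, 20.1, 54.8 and 38.6 CPM in PL (8.25, SE 0.80), and only PP replicate 3 held counts of it among the PP libraries, so that its size of change rests on that library. Tnfaip3, the ubiquitin editor A20 (3.06, SE 0.36), Zfp36, the protein tristetraprolin that hastens decay of cytokine mRNAs (3.34, SE 0.36, 164 to 352 CPM in PP and 1736 to 2451 CPM in PL), Traf1 (4.72, SE 0.84) and Tnip2 (2.40, SE 0.14) rose. The relative Zfp36l2 (-1.22, SE 0.18), the deubiquitinase gene Cyld (-0.50, SE 0.13) and the ubiquitin ligase gene Peli1 (-0.52, SE 0.16) fell, and the call of Peli1 was lost without PL replicate 2. Of the SOCS genes, which damp JAK-STAT signals, 5 of 8 rose and none fell. Socs3 was at 15.4, 10.7, 15.7, 11.3 and 11.7 CPM in PP and 998, 899, 1628 and 1168 CPM in PL (log2 fold change 6.50, SE 0.22, adjusted p = 9.00e-21), Socs2 rose by 7.01 and Cish by 6.91 on the log2 scale, and Socs1 was not called (0.44, SE 0.51, adjusted p = 0.571). Of 11 dual-specificity phosphatase genes 6 rose and 2 fell: Dusp1 (6.08, SE 0.76), Dusp2 (6.06, SE 0.74), Dusp5 (4.37, SE 0.55) and Dusp8 (3.72, SE 0.31) against Dusp7 (-1.70, SE 0.17) and Dusp22 (-0.72, SE 0.15). These phosphatases switch off MAP kinases, and Dusp7 acts mainly on ERK. The change of Dusp1 was 7.06 without PP replicate 1 and that of Dusp2 was 6.69 without PP replicate 3.

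None of the 5 rises with the smallest p-values was in a cytokine gene. Arid5a, an RNA-binding protein known to stabilise interleukin 6 mRNA, was at 15.1, 22.5, 14.9, 17.6 and 17.0 CPM in PP and 399, 461, 488 and 424 CPM in PL (log2 fold change 4.67, SE 0.15, adjusted p = 2.21e-22). Kdm6b, the demethylase JMJD3 that removes a repressive methyl mark from histone H3, was at 19.0, 13.9, 17.6, 13.4 and 19.0 CPM in PP and 484, 318, 533 and 452 CPM in PL (log2 fold change 4.75, SE 0.18, adjusted p = 5.28e-21). Runx1, a myeloid transcription factor, was at 185, 186, 167, 142 and 178 CPM in PP and 1077, 829, 925 and 974 CPM in PL (log2 fold change 2.47, SE 0.09, adjusted p = 5.28e-21). In all of them the lowest PL library lay far above the highest PP library. B4galt3, a galactosyltransferase, rose too (3.12, SE 0.12, 67.9 to 79.5 CPM in PP and 520.1 to 752 CPM in PL), and Nfkbia, described above, is the fifth.

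Immediate early genes and Kruppel-like factors mostly rose, and the C/EBP and MYC families gave mixed counts. Of 17 AP-1, EGR, NR4A and related immediate early genes 13 rose and none fell. After LPS, Ier3 (5.57, SE 0.35), Fosl2 (5.13, SE 0.22), Egr1 (4.87, SE 1.05), Egr2 (4.84, SE 0.45) and Ier2 (4.54, SE 0.59) rose most, and Jun (0.64, SE 0.55, adjusted p = 0.433) and Atf3 (-0.35, SE 0.26, adjusted p = 0.348) were not called. Fos was at 42.1, 1.48, 1.52, 3.36 and 3.40 CPM in PP and 138, 52.9, 131 and 124 CPM in PL (log2 fold change 3.42, SE 1.07, adjusted p = 0.0199), without overlap, although PP replicate 1 came near PL replicate 2. PP replicate 1 was also the highest PP library for Egr1 at 60.3 CPM, Ier2 at 115 CPM and Klf4 at 6.07 CPM. Without it the changes were 5.50 for Fos, 6.50 for Egr1, 5.60 for Ier2 and 5.30 for Klf4. Of 10 Kruppel-like factors 8 rose and none fell, led by Klf4 (4.45, SE 0.40) and Klf9 (3.39, SE 0.38). Of 6 C/EBP genes 3 rose and 1 fell. Cebpb, a main regulator of acute inflammatory genes (4.22, SE 0.28, 1.61 to 3.02 CPM in PP and 16.6 to 51.5 CPM in PL), and Cebpd (2.43, SE 0.37) rose. Cebpg fell (-0.48, SE 0.15), a call that was lost without PP replicate 4 or 5 or PL replicate 3. In the MYC and MAX network 4 of 10 genes rose and 2 fell, with a median log2 fold change of 0.04. Myc rose (2.00, SE 0.24), while its antagonist Mxd4 fell (-1.62, SE 0.22). Of 18 inducible kinases, small GTPases and GADD45 genes 15 (83.3%) rose, against 14.2% of all genes, and 1, Rapgef2, fell (-0.91, SE 0.21). These genes were listed as inducible with earlier results of these data known, so their count of rises is a description only. After Sphk1, the largest rises of that list were in Rnd1 (7.19, SE 0.55), Gadd45b (5.74, SE 0.62), Pim1 (5.44, SE 0.24) and Gadd45g (3.79, SE 0.20). Those of Rnd1 and Gadd45b were 8.02 without PP replicate 4 and 6.33 without PP replicate 3.

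The interferon arm rose in part by 3 h. Of 29 interferon-stimulated antiviral genes 19 rose and none fell, with a median log2 fold change of 1.12, and 14 of these 19 were also called with the 2 PL libraries of sorting day 5 alone. Ifit1, which binds viral RNA, was at 3.47, 4.72, 4.30, 4.56 and 3.53 CPM in PP and 84.1, 38.9, 75.8 and 62.3 CPM in PL (log2 fold change 3.99, SE 0.30, adjusted p = 1.14e-12). Oasl1 (5.44, SE 0.63, and 6.08 without PP replicate 5), Rsad2, which encodes viperin (2.92, SE 0.38), Cmpk2 (2.19, SE 0.34) and Oas2 (no count in PP, at least 24.3-fold) rose most, while Mx1 (1.31, SE 0.54, adjusted p = 0.0722) and Bst2 (0.14, SE 0.10, adjusted p = 0.322) were not called. Of the 25 promoter windows of 21 matched members 13 (52.0%) held the core of the interferon-stimulated response element on either strand, searched as GAAA, any 2 bases and GAAA, against 3.17% of all windows, 6.89% of those of genes called at least 4-fold higher and 0.8% of those called at least 4-fold lower. Of 13 interferon-inducible GTPases 8 rose, led by Gbp5 (3.70, SE 0.28) and, in smaller steps, Iigp1 (3.25, SE 0.42) and Gbp2 (2.38, SE 0.29). Such families share sequence, so that reads of near copies such as Ifit3 and Ifit3b or Tgtp1 and Tgtp2 may be split. All 5 tested Schlafen genes rose, Slfn2 most (3.87, SE 0.16, 35.6 to 49.2 CPM in PP and 571 to 656 CPM in PL). Irf1 (2.08, SE 0.18) and Irf7 (1.14, SE 0.32) led 5 interferon regulatory factors that rose, and Irf8 (-0.88, SE 0.12) and Irf5 (-0.36, SE 0.13) fell. The call of Irf7 was lost without PL replicate 3, and that of Irf5 when any 1 of 4 libraries was left out. Stat3 was at 267, 289, 265, 278 and 274 CPM in PP and 1321, 1344, 1236 and 1258 CPM in PL (log2 fold change 2.23, SE 0.09, adjusted p = 3.28e-20), Stat2 (1.93, SE 0.17) and Jak3 (1.57, SE 0.28) also rose, and Tyk2 fell (-0.67, SE 0.17).

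Genes of surface receptors moved in both directions. Among 20 receptors for metabolites, lipids and formyl peptides 10 rose and 6 fell. Hcar2, the receptor for butyrate and ketone bodies, was at 16.9, 15.9, 14.2, 11.6 and 12.8 CPM in PP and 722, 431, 537 and 655 CPM in PL (log2 fold change 5.36, SE 0.25, adjusted p = 3.58e-16). Gpr84, a receptor for medium-chain fatty acids, was at 276, 308, 300.1, 319 and 229 CPM in PP and 2989, 1166, 2887 and 2959 CPM in PL (3.13, SE 0.21). In both genes the groups stood apart, with PL replicate 2 the lowest of its group. The formyl peptide receptor gene Fpr1 rose (4.01, SE 0.72), Fpr2 had no count in PP and was at least 28.2-fold higher, and Gpr132 rose (6.14, SE 0.70). In the opposite direction, the lysophosphatidic acid receptor gene Lpar5 (-3.01, SE 0.35, 24.7 to 27.1 CPM in PP and 1.66 to 4.50 CPM in PL), Gpr160 (-2.11, SE 0.17), the sphingosine 1-phosphate receptor gene S1pr1 (-2.08, SE 0.27), the oxysterol receptor gene Gpr183 (-1.55, SE 0.12), Lpar6 (-1.03, SE 0.14) and Cysltr1 (-0.48, SE 0.14) fell. The call of Cysltr1 was lost without PL replicate 3, and the changes of Fpr1 and Gpr132 were 6.32 and 7.43 without PP replicate 1. Cd300lf, an inhibitory lipid receptor, was at 2.48, 1.75, 1.14, 1.20 and 4.79 CPM in PP and 363, 445, 290.1 and 289 CPM in PL (log2 fold change 7.24, SE 0.28, adjusted p = 2.88e-19).

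Most Fc gamma receptor genes rose, whereas the complement, lectin and scavenger receptor lists were mixed or mostly not called. Of 6 Fc gamma receptor genes 4 rose: Fcgr4 (1.68, SE 0.19), Fcgr3 (1.1, SE 0.11), Fcgr2b (0.70, SE 0.10) and the shared signalling chain Fcer1g (0.44, SE 0.08). In complement 2 of 10 genes (20%) rose, against 14.2% of all genes. These were the C5a receptor C5ar1 (2.43, SE 0.11, 299.5 to 384 CPM in PP and 1726 to 2076 CPM in PL) and the C3a receptor C3ar1 (0.51, SE 0.11). Of 12 C-type lectin receptor genes 4 (33.3%) rose and 3 (25%) fell. Of 18 TREM and scavenger receptor genes 5 (27.8%) rose and 4 (22.2%) fell, against 14.2% and 11.9% of all genes. Clec4d and Trem3, with no count in PP, were at least 49.3-fold and 13.5-fold higher, and Clec4n (2.71, SE 0.54) and the scavenger receptor gene Msr1 (2.27, SE 0.30) rose. The fungal receptor gene Clec7a (-1.0, SE 0.24), Clec4a2 (-0.69, SE 0.17), the efferocytosis receptor gene Mertk (-0.52, SE 0.10) and its ligand gene Gas6 (-0.74, SE 0.17) fell. Icam1, the adhesion ligand of leukocyte integrins (3.24, SE 0.14), Itga5 (2.87, SE 0.17) and Vcam1 (2.52, SE 0.31) rose, and Itga6 fell (-0.59, SE 0.10). Cd274, which encodes PD-L1 (2.01, SE 0.21), and Icosl (0.98, SE 0.12) rose, and Sirpa (-0.51, SE 0.10) and Cd200r1 (-0.85, SE 0.25), receptors of inhibitory signals, fell, the second with a call that was lost without PL replicate 3.

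Genes of prostaglandin synthesis and of the oxidative burst moved in part. Ptgs2, the inducible cyclooxygenase, was at 0, 0, 0, 0 and 0.630 CPM in PP and 90.0, 13, 39.8 and 50.5 CPM in PL (log2 fold change 8.41, SE 0.61, adjusted p = 2.80e-12), while the constitutive Ptgs1 fell slightly (-0.27, SE 0.09). Ptger4, a receptor of prostaglandin E2 (3.34, SE 0.21), rose and Hpgd, the enzyme that degrades prostaglandins (-1.45, SE 0.14, 359 to 398 CPM in PP and 124 to 161 CPM in PL), fell. Their list had 3 rises (16.7%) and 4 falls (22.2%) among 18 genes, against 14.2% and 11.9% of all genes. Of 16 NADPH oxidase, itaconate and nitric oxide genes 10 rose and none fell, among them Acod1, the itaconate-making enzyme (6.49, SE 0.77), Txnrd1 (3.16, SE 0.14), the cystine transporter gene Slc7a11 (3.16, SE 0.49), Gch1 (2.70, SE 0.39) and Cybb, the oxidase core (1.94, SE 0.29). For iron, the importers Slc39a14 (3.15, SE 0.22) and Slc11a2 (1.48, SE 0.16) and the reductase Steap4 (5.72, SE 0.94) rose, and the exporter ferroportin, Slc40a1 (-0.77, SE 0.16), and Ncoa4, the receptor for ferritin breakdown (-0.64, SE 0.15), fell. Of 22 glycolysis and HIF1A target genes 4 (18.2%) rose and 5 (22.7%) fell, against the same shares of all genes. After Adm these were the glucose transporter gene Slc2a1 (2.35, SE 0.15), Pfkfb3 (2.29, SE 0.16) and Ldha (1.39, SE 0.11), against Pfkfb4 (-0.92, SE 0.15), Pdk1 (-0.78, SE 0.15), Hk3 (-0.53, SE 0.15) and Hk1 and Pfkl, whose calls were lost when any 1 of 6 libraries was left out. Only PP replicate 5 held counts of Ptgs2 among the PP libraries. Steap4 had PP counts only in replicate 4, and the change of Acod1 was 7.45 without PP replicate 2.

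Genes of matrix breakdown and coagulation rose in 9 of 14 cases and fell in 2. Plaur, the receptor of urokinase, was at 25.1, 18.3, 23.9, 25.7 and 26.7 CPM in PP and 418, 414, 320.5 and 336 CPM in PL (log2 fold change 3.95, SE 0.16, adjusted p = 3.76e-20). F3, tissue factor, the starter of clotting, was at 3.84, 2.83, 1.77, 5.52 and 2.02 CPM in PP and 98.3, 26.0, 68.3 and 60.1 CPM in PL (4.30, SE 0.31). The groups did not overlap in either gene. The collagenase gene Mmp13 (4.79, SE 0.87), Fn1, which encodes fibronectin (3.52, SE 0.67), and Adamts4 (2.95, SE 0.82) rose as well, and urokinase itself, Plau (-2.67, SE 0.76), and Mmp2 (-0.77, SE 0.23) fell. The call of Mmp2 was lost without PL replicate 1. The changes were 5.71 for Mmp13 without PP replicate 4, 4.39 for Fn1 without PP replicate 2, 3.86 for Adamts4 without PP replicate 5 and -4.37 for Plau without PL replicate 3.

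Stress, survival and lipid genes gave mixed counts, to be read beside the 14.2% of all genes tested that rose and the 11.9% that fell. Of 18 heat shock and unfolded protein response genes 8 (44.4%) rose, among them Ppp1r15a, which restarts translation after stress (2.09, SE 0.29), and Atf4 (1.43, SE 0.13), and 1 (5.56%) fell, the sensor kinase gene Eif2ak3 (-0.77, SE 0.22). In the BCL2 family 6 of 17 (35.3%) rose and 1 (5.88%) fell. Mcl1, which protects against apoptosis (2.20, SE 0.13), Bcl2l1 (1.09, SE 0.20), and the pro-apoptotic Pmaip1 (1.86, SE 0.30) and Bmf (1.79, SE 0.13) rose, and pro-apoptotic Bid fell (-0.90, SE 0.17). In sterol metabolism 5 of 20 (25%) rose and 3 (15%) fell: the ubiquitin ligase gene Mylip (-1.06, SE 0.12), the exporter gene Abcg1 (-0.80, SE 0.12) and Npc1 (-0.41, SE 0.11). Ch25h, which makes an antiviral oxysterol, was at 1.11, 0.405, 1.26, 0.120 and 1.39 CPM in PP and 59.7, 25.3, 56.5 and 44.6 CPM in PL (log2 fold change 5.74, SE 0.56, adjusted p = 6.95e-09), with no overlap. It stood in a list of 20 genes known from disease-associated microglia in which 7 (35%) rose and 2 (10%) fell. Spp1, osteopontin (3.81, SE 0.44), Fabp5 (5.59, SE 0.52) and Apoe (0.45, SE 0.13) rose, while Lpl (-0.79, SE 0.22) and Timp2 (-0.41, SE 0.13) fell. Leaving out PL replicate 1, 2 or 3 ended the calls of Apoe, Timp2 and Eif2ak3, in that order.

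Purine receptors, chemokine receptors and antigen presentation completed the surface changes. After P2ry2, Adora2a, an adenosine receptor that dampens inflammation, had the largest rise among 12 purinergic genes (4.84, SE 1.22), but the change was 3.19 and not called without PL replicate 3. P2rx7, the ATP-gated channel that triggers interleukin 1 release, fell slightly (-0.33, SE 0.12), with a call that was lost when any 1 of 6 libraries was left out. Of 9 chemokine receptors 4 rose, after Ccr7 the atypical receptor gene Ccrl2 (2.40, SE 0.28, 20.0 to 29.7 CPM in PP and 41.0 to 177 CPM in PL) and Ccr1 (1.12, SE 0.27) among them. Of 16 MHC class I and immunoproteasome genes 4 rose and 2 fell. Nlrc5, the transactivator of the class I genes (2.22, SE 0.32), and H2-K1 (0.61, SE 0.12) rose, and the immunoproteasome subunit gene Psmb9 fell (-0.56, SE 0.15). The H2 genes are near copies of each other, so that reads may be split between them.

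Genes of the glucocorticoid response and the metallothioneins rose in 8 of 13 cases and fell in 2. Mt2, a metal-binding protein, was at 2.11, 1.35, 2.66, 1.44 and 1.01 CPM in PP and 121, 44.6, 101 and 92.2 CPM in PL (log2 fold change 5.7, SE 0.31, adjusted p = 2.44e-16), and Mt1 followed (3.45, SE 0.15). Zbtb16 (5.17, SE 0.58, and 7.08 without PP replicate 5), the cell cycle inhibitor gene Cdkn1a (3.83, SE 0.18) and the clock gene Per1 (2.97, SE 0.22) rose. Fkbp5, a co-chaperone of the glucocorticoid receptor, was at 130, 82.8, 85.5, 78.2 and 148 CPM in PP and 569, 564, 558 and 497 CPM in PL (2.38, SE 0.14). The kinase gene Sgk1, often a target of the same hormone, went the other way, at 545, 473, 478, 515 and 338 CPM in PP and 168, 198, 88.8 and 124 CPM in PL (log2 fold change -1.70, SE 0.21, adjusted p = 1.82e-07), and Nr3c1, the receptor itself, fell slightly (-0.36, SE 0.10). Each of these 3 genes had groups that did not overlap.

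Most transcription factors that keep microglial identity fell. Of 18 such genes 12 fell and 4 rose, against 11.9% and 14.2% of all genes. Sall1, which restrains inflammatory programmes in microglia, was at 418, 471, 408, 485 and 458 CPM in PP and 90.8, 69.9, 128 and 111 CPM in PL (log2 fold change -2.16, SE 0.18, adjusted p = 9.03e-12). Maf was at 629, 736, 803, 759 and 674 CPM in PP and 206, 165, 215 and 174 CPM in PL (log2 fold change -1.92, SE 0.12, adjusted p = 4.69e-15) and Hhex at 106, 111, 99.0, 92.2 and 92.6 CPM in PP and 12.2, 15.2, 10.1 and 14.2 CPM in PL (log2 fold change -2.96, SE 0.24, adjusted p = 6.16e-12). In each the groups were fully apart, and Hhex had the largest fall of the list. Fli1 (-1.32, SE 0.13), Irf8, and in smaller steps Zeb2 (-0.80, SE 0.13) and Mef2c (-0.78, SE 0.09) fell. The 4 that rose were Bhlhe40 (3.98, SE 0.54, and 5.13 without PP replicate 5), Runx1, Tfec (2.08, SE 0.75, and 2.73 without PP replicate 1) and Sall3 (0.53, SE 0.13), of which Tfec lost its call when any 1 of 6 libraries was left out. Spi1, which encodes PU.1, was at 311, 309, 96.4, 62.5 and 248 CPM in PP and 92.5, 58.8, 193 and 181 CPM in PL, with overlap and no call (-0.64, SE 0.46, adjusted p = 0.328). Smad3, a mediator of TGF-beta signals, fell (-0.70, SE 0.14). In a separate list of 15 tested genes of that pathway 6 (40%) rose and 2 (13.3%) fell, against 14.2% and 11.9% of all genes. Bambi, a decoy receptor (3.50, SE 0.45), and Skil, a repressor (1.57, SE 0.11), rose, and so did Nrros (1.03, SE 0.11), Smad1 (0.89, SE 0.13) and Smad4 (0.88, SE 0.18). Eng (-0.78, SE 0.16) and the receptor gene Tgfbr1 (-0.63, SE 0.11) fell.

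Of 26 homeostatic surface and secreted genes 11 fell, 3 rose and 12 were not called, with a median log2 fold change of -0.22. The falls were largest in Gpr165 (-1.65, SE 0.27), Gpr34, which binds lysophosphatidylserine (-1.27, SE 0.13), Cx3cr1, through which microglia sense neuronal fractalkine (-1.06, SE 0.12), and the ADP receptor genes P2ry12 (-0.88, SE 0.12) and P2ry13 (-0.75, SE 0.12). Cx3cr1 was at 7586, 8086, 7513, 8215 and 7283 CPM in PP and 3925, 3784, 3629 and 3516 CPM in PL, so the lowest PP library lay well above the highest PL library. P2ry6, a receptor for UDP that promotes phagocytosis, rose (1.11, SE 0.08, 508 to 604 CPM in PP and 1134 to 1313 CPM in PL), and the complement genes C1qb (0.32, SE 0.07) and C1qa (0.25, SE 0.08) rose by less than 2-fold, the second with a call that was lost without PP replicate 5 or PL replicate 3 or 4. Csf1r (-0.27, SE 0.13) and Trem2 (-0.13, SE 0.09) were not called, with adjusted p of 0.134 and 0.321.

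Among the largest falls were genes of G protein signalling and chromatin. Rgs2, which shortens G protein signals, was at 905, 777, 822, 827 and 882 CPM in PP and 66.5, 87.5, 102 and 108 CPM in PL (log2 fold change -3.21, SE 0.22, adjusted p = 2.77e-13), and 4 of 6 RGS genes fell and none rose. Cbx8, a reader subunit of Polycomb complex 1, was at 18, 13.6, 25.1, 21.0 and 26.2 CPM in PP and 1.99, 1.96, 0.355 and 1.19 CPM in PL (log2 fold change -3.94, SE 0.41, adjusted p = 1.84e-09), the only 1 of 13 genes of that complex and its CBX relatives called lower. The deubiquitinase gene Otud1 was at 13.8, 25.6, 18.9, 19.7 and 19.7 CPM in PP and 0.871, 3.03, 2.60 and 1.32 CPM in PL (-3.33, SE 0.38). The transcription factor gene Sox4 was at 195, 179.8, 176, 185 and 175 CPM in PP and 26.3, 27.3, 23.9 and 24.2 CPM in PL (log2 fold change -2.84, SE 0.16, adjusted p = 3.33e-16) and Cln8, which ferries lysosomal enzymes out of the endoplasmic reticulum, at 151, 143, 155, 179 and 138 CPM in PP and 30.0, 34.9, 35.0 and 35.2 CPM in PL (-2.18, SE 0.17). With Maf, Rgs2 and Gm15503 these were the 5 falls with the smallest p-values, and the PL values of Sox4 spanned only 23.9 to 27.3 CPM. The histone gene H2bc6 (-3.38, SE 0.43), Tcim (-3.63, SE 0.57) and Sh2d3c (-3.03, SE 0.41) fell too. Of the 15 largest falls, 9 carry no protein-derived name: Gm45540 (-5.24, SE 0.55), Gm37124 (-4.35, SE 0.60) and A130050O07Rik (-3.97, SE 0.79) led them, and 8030423J24Rik, 2010109A12Rik, Gm37010, 9930012K11Rik, Gm15503 and Gm37306 had log2 fold changes from -3.12 to -3.06. Leaving out the PL library with the most counts moved several of these, to -6.31 for Gm45540 without replicate 4, -5.0 for Gm37124 and -3.62 for Sh2d3c without replicate 3, -4.34 for Tcim and -4.02 for 9930012K11Rik without replicate 2 and -4.05 for 2010109A12Rik without replicate 1, while only replicate 3 held counts of A130050O07Rik in PL. Gm15503 was at 177, 174, 211, 193 and 167 CPM in PP and 23.9, 22.6, 20.6 and 19.9 CPM in PL. Kcnj2, an inward rectifier potassium channel (-2.38, SE 0.28), Kcnk13, the channel THIK-1 (-0.98, SE 0.14), and Tfeb, the main regulator of lysosomal genes (-1.46, SE 0.31), fell as well. Of 9 tested genes in the potassium channel list 3 (33.3%) fell and 2 (22.2%) rose, Kcna3 (2.27, SE 0.83) and Kcnk6 (0.81, SE 0.16).

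Other groups ranged from almost no calls to a share of falls above that of all genes. Of 22 nuclear-encoded oxidative phosphorylation genes 1 rose, Cox7c (0.67, SE 0.24), with a call that was lost when any 1 of 6 libraries was left out, and none fell, below the 14.2% and 11.9% of all genes. Of 10 MHC class II genes 1 rose, the invariant chain Cd74 (0.97, SE 0.23). Of 20 lysosomal genes 5 (25%) fell, against 11.9% of all genes, and 1 (5%) rose. Of 18 cell cycle genes 3 (16.7%) fell and 2 (11.1%) rose. Of 10 RIP kinase and necroptosis genes 2 (20%) rose, against 14.2% of all genes, namely Birc3 (3.16, SE 0.19) and Ripk1 (1.52, SE 0.14). A low count does not show that a group was unchanged.

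**Figure D4:**
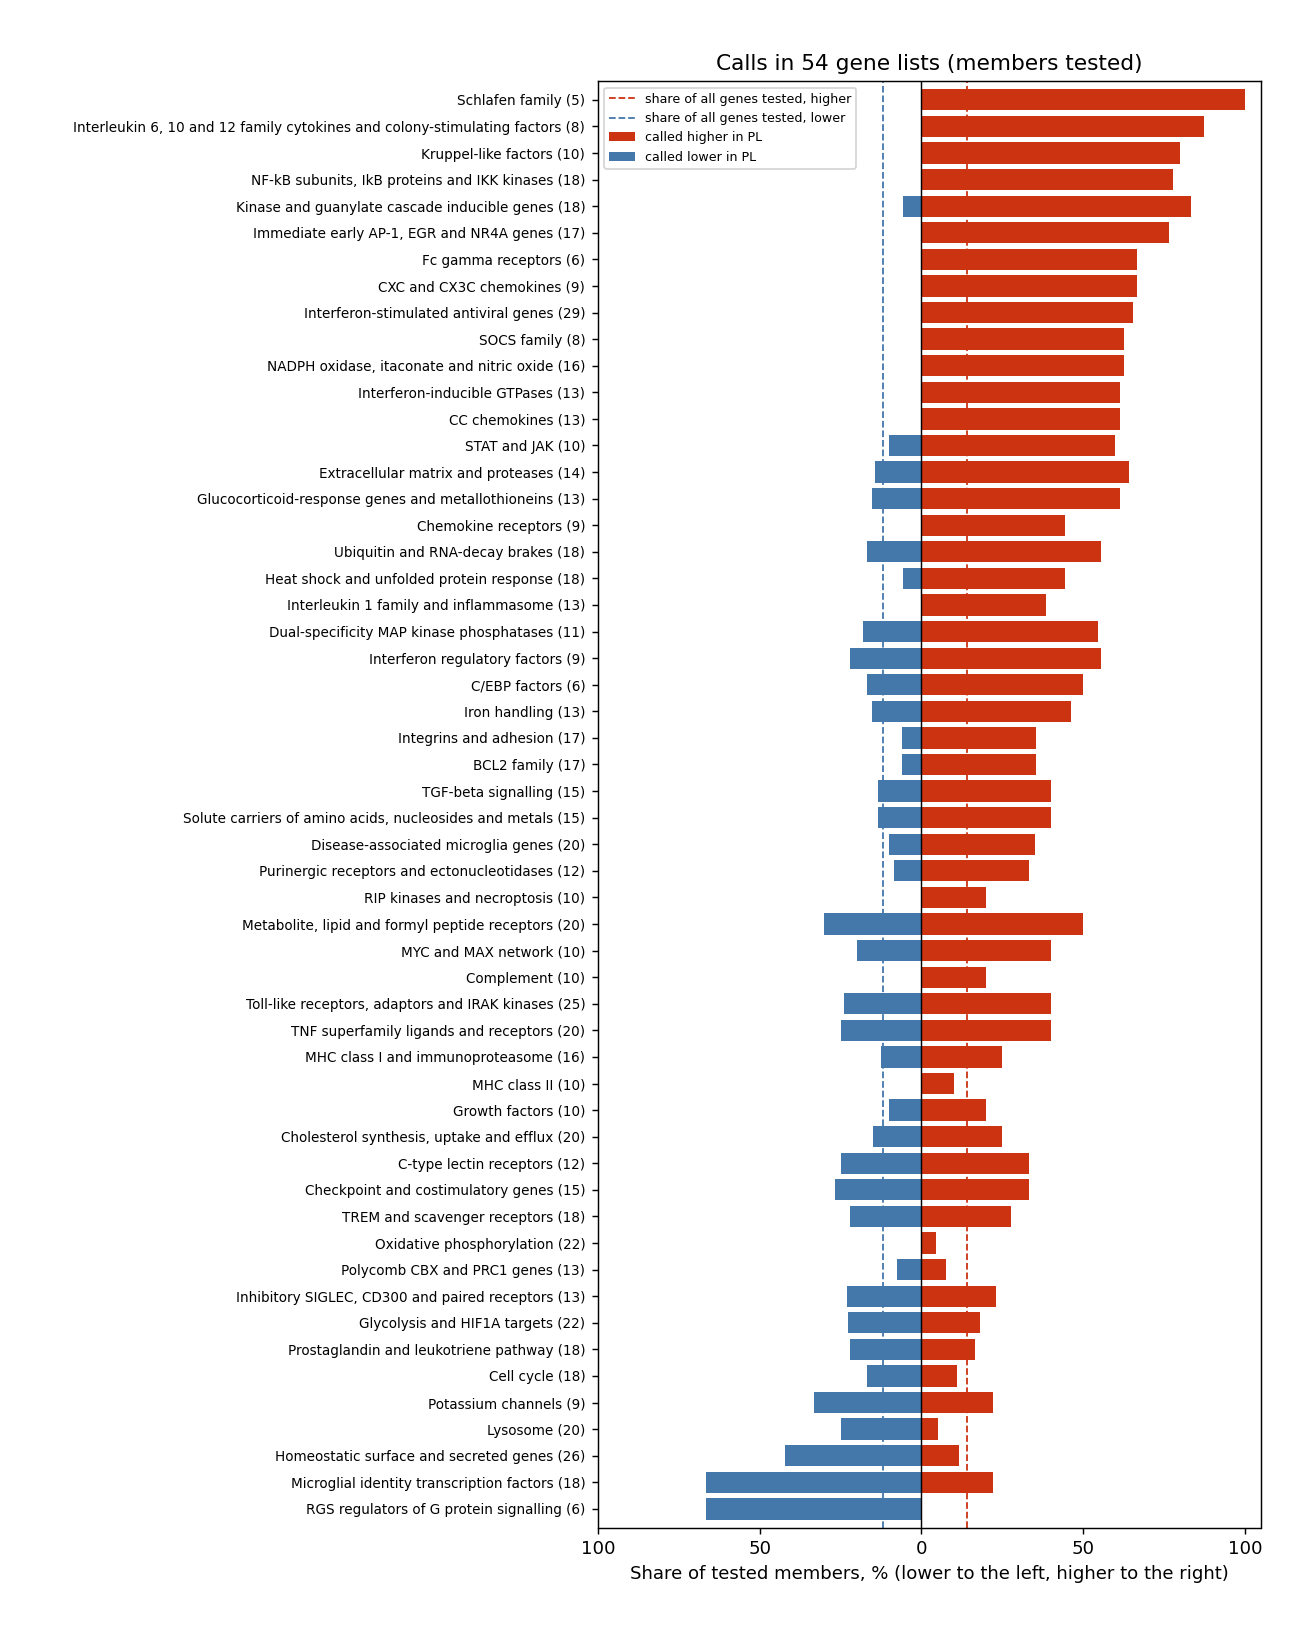
Share of the tested members of each of 54 gene lists called higher (red bars, to the right) or lower (blue bars, to the left) in PL, with the number of tested members in brackets and dashed lines at the shares over all genes tested, 14.2% higher and 11.9% lower. Lists run from Schlafen, cytokine, Kruppel-like and NF-kB genes at the top to homeostatic genes, identity factors and RGS genes at the bottom.

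The 4 PL libraries differed in the strength of the rises. Replicate 2 was the lowest of the 4 in 294 of the 569 genes called at least 4-fold higher, against 81, 77 and 117 for replicates 1, 3 and 4. Its median log2 level above the PP mean over these genes was 2.01, against 2.34, 2.53 and 2.38. Over the genes called at least 4-fold lower, the medians were closer, at -1.9, -1.76, -1.83 and -1.91 in replicates 1 to 4. Replicate 2 also had the fewest counts, 5806269 against 8020847 or more, and the part of depth was not tested. Among called genes with at least 50 CPM in PL, the coefficient of variation over the 4 libraries was largest for Dusp1 (68.9%), Marcksl1 (62.1%), Tnfsf9 (58.6%), Art3 (58.5%) and Tnip3 (57.8%). Dusp1, a phosphatase that ends p38 signalling, was at 37.4, 8.09, 2.91, 7.08 and 7.43 CPM in PP and 1581, 166, 701 and 967 CPM in PL, and PP replicate 1 stood above the other 4 PP libraries, as it did for Fos. Marcksl1 was at 26.4, 18.9, 6.83, 3.96 and 20.9 CPM in PP and 125, 53.3, 285 and 278 CPM in PL, with the 2 libraries of sorting day 5 above the 2 of day 4. At the other end Slc25a11 (1.44%), Mfhas1 (1.51%), Txndc15 (1.67%), Med10 (1.71%) and Arl8b (1.80%) had the smallest, of which Med10 lost its call when any 1 of 5 libraries was left out. Mfhas1, a modulator of Toll-like receptor signals, was at 67.7, 58.0, 60.7, 65.8 and 71.8 CPM in PP and 137, 134, 132 and 135 CPM in PL (log2 fold change 1.05, SE 0.10, adjusted p = 2.41e-10), with all 4 PL libraries close together.

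All 5 PP libraries and PL replicates 3 and 4 were sorted on day 5, and PL replicates 1 and 2 on day 4, all on a MoFlo Astrios sorter. With only the day 5 PL libraries against the same PP libraries, in the fit over all 29 libraries, 2021 genes (12.2%) were called higher and 1549 (9.31%) lower. These included 1817 of the 2369 rises and 1284 of the 1981 falls, where 2 libraries stand in place of 4. With only the day 4 libraries the counts were 1817 (10.9%) and 1271 (7.64%). Both sets of calls use the same PP libraries. Log2 fold changes were 7.69 on day 5 and 6.70 on day 4 for Il1b, 3.70 on day 5 and 3.32 on day 4 for Nfkbia, 4.71 on day 5 and 4.62 on day 4 for Arid5a, 8.26 on day 5 and 7.56 on day 4 for Cxcl10, -3.00 on day 5 and -3.46 on day 4 for Rgs2 and -1.90 on day 5 and -2.48 on day 4 for Sall1.

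Between the PL libraries of the 2 days 15 genes were called (0.0902% of those tested), 6 higher and 9 lower on day 4, and 1742 had an unadjusted p under 0.05. They were Gm5148, Rps23-ps1, mt-Rnr2, Tmem170b, Lifr, Mtus1, Gm12918, Gna12, Rbm47, Lars2, Dock1, Gm10288, Ltbr, Trim23 and Rps6-ps4. Lifr, a receptor subunit for leukaemia inhibitory factor, was at 261, 214, 229, 224 and 275 CPM in PP and 466, 419.6, 196 and 255 CPM in PL (day 4 against day 5, 0.97, SE 0.19, adjusted p = 0.0448). The mitochondrial ribosomal RNA mt-Rnr2 was at 814, 823, 922, 858 and 897 CPM in PP and 917, 685, 2240 and 1332 CPM in PL (-1.16, SE 0.22, adjusted p = 0.0448), and only the day 5 libraries exceeded PP. Against PP, the call of mt-Rnr2 was lost when any 1 of 6 libraries was left out, that of Lifr or Trim23 when any 1 of 5 was, and that of Tmem170b without PL replicate 3 or 4. Tmem170b was at 256, 236, 257, 243 and 243 CPM in PP and 245, 212, 101 and 133 CPM in PL (0.96, SE 0.19, adjusted p = 0.0448), with the day 5 libraries below every PP library. Gm5148 (-0.82, SE 0.14, adjusted p = 0.0256) and Rps23-ps1 (-0.80, SE 0.15, adjusted p = 0.0380), a ribosomal pseudogene whose reads may come from its parent, were lower on day 4. Without PL replicate 2 or without replicate 3 no gene was called, and without replicate 1 or replicate 4 there were 26 and 30 calls, in fits that take the lone library of a day to vary like the others. DESeq2 called 187. Replicate 3 had the lowest RNA quality number, 6.5 against 9.1, 8.9 and 8.4 in replicates 1, 2 and 4 and 8.6 to 9.1 in PP, and its part in these differences was not tested.

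In mice whose microglia had been depleted with BLZ945 and had grown back, the same first LPS injection was compared in PBL (5 libraries) against PBP (5 libraries). No gene passed the test of the difference between the 2 responses (0% of those tested), with 2120 at an unadjusted p under 0.05 and a smallest adjusted p of 0.0533. DESeq2 called 51 and limma voom 0. Log2 fold changes were 4.67 without depletion and 4.27 after it, a difference of -0.40 (SE 0.19, adjusted p = 0.379) for Arid5a. For Kdm6b they were 4.75 without depletion and 5.64 after it, a difference of 0.89 (SE 0.23, adjusted p = 0.135), and for Nfkbia 3.52 without depletion and 3.51 after it, a difference of -0.01 (SE 0.16, adjusted p = 0.987). For Rgs2 they were -3.21 without depletion and -3.59 after it, a difference of -0.38 (SE 0.27, adjusted p = 0.568). A difference that misses the threshold does not show that the responses were alike. Without PBP replicate 5 the count was 740, and without any 1 other library it was 0 to 16, with 16 when PL replicate 3 was left out, so the count of 0 depended on PBP replicate 5. PBP replicate 5 and all PBL libraries were sorted on day 3 with a MoFlo XDP, and the other PBP libraries on day 4 with the Astrios. Neutrophil markers summed to 127 to 485 CPM in PBL against 0 to 6.52 CPM in PBP, and their part in this comparison was not tested.

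Markers of other cells were measured in the same libraries. The summed level of 10 microglial markers was 61400 to 73400 CPM in PP and 47300 to 54800 CPM in PL, and 7 of the 10 fell. Monocyte markers summed to 7.43 to 22.1 CPM in PP and 8.2 to 16.1 CPM in PL, with Ly6c2 at 0 in all PL libraries, and 2 of 6 tested members rose, Plac8 (2.24, SE 0.64, and 2.83 without PP replicate 3) and Fn1 (3.52, SE 0.67, and 4.39 without PP replicate 2). Neutrophil markers summed to 0 to 7.85 CPM in PP and 1.24 to 21.1 CPM in PL, highest in replicate 3. Ly6g and Elane were at 0 in all 9 libraries, and 1 of 7 tested members rose, Lcn2 (4.86, SE 1.1, and 3.88 without PL replicate 3 or 6.22 without PP replicate 5), which inflamed glia also express. The astrocyte sum, 438 to 590 CPM in PP and 750 to 1020 CPM in PL, was mostly Slc1a3, the only 1 of 10 tested members called (411 to 576 CPM in PP and 728 to 1003 CPM in PL, 0.74, SE 0.11), while Gfap and Aqp4 had means of 0.979 to 0.936 CPM and 1.46 to 2.00 CPM from PP to PL. The lymphocyte sum, 771 to 948 CPM in PP and 315 to 356 CPM in PL, was mostly Ighm (-1.40, SE 0.14) and Cd79b (-1.08, SE 0.18), both of which fell, with Cd3e and Trac at 0 in all 9 libraries. Border-associated macrophage markers summed to 55.5 to 116 CPM in PP and 87.1 to 156 CPM in PL, and none of 9 tested was called. Neuron markers summed to 11.9 to 36.9 CPM and 24.8 to 52.7 CPM, with 1 of 10 tested called higher. Oligodendrocyte markers summed to 142 to 188 CPM and 130 to 166 CPM, with 1 of 8 called lower. Endothelial and pericyte markers summed to 34.5 to 44.7 CPM and 17.2 to 32.7 CPM, with none of 4 called, and red blood cell markers to 1.44 to 7.43 CPM and 6.48 to 19.8 CPM, with none of 5 called. The part of other cells in the changes described was not tested.

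**Figure D5:**
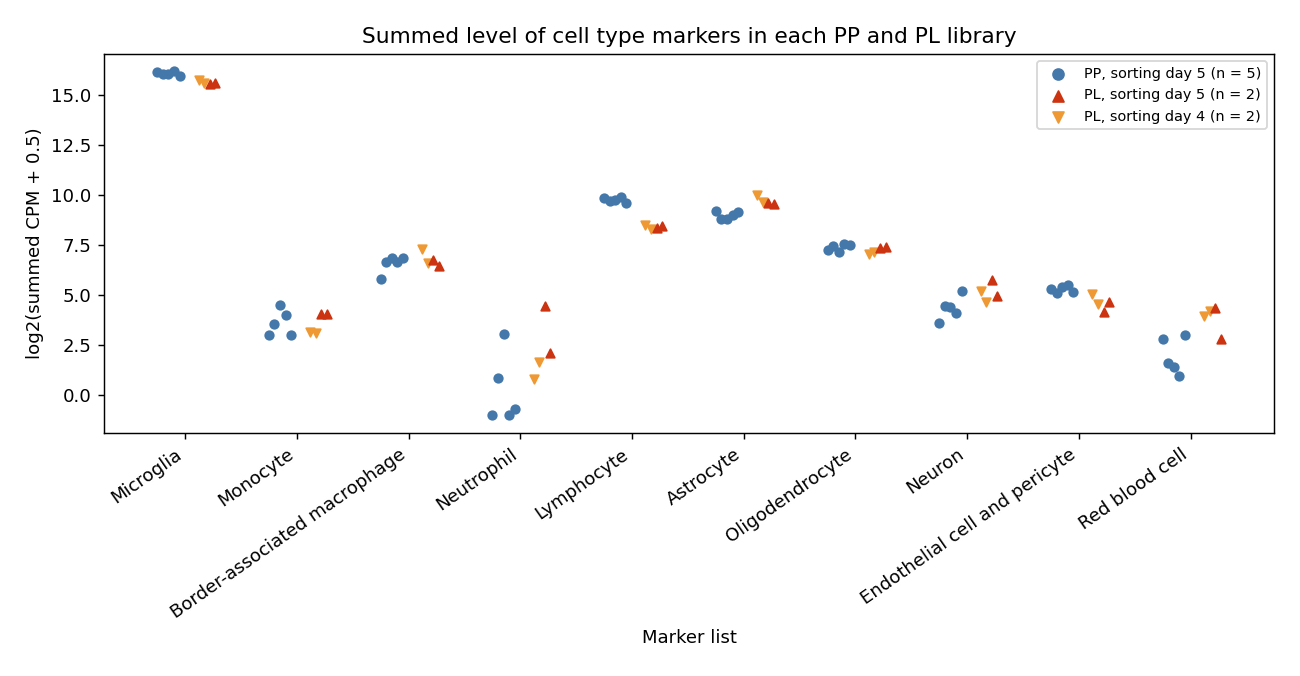
Summed level of the marker genes of 10 cell types, as log2(summed CPM + 0.5) (vertical axis), in each PP library (blue circles) and each PL library sorted on day 5 (red triangles up) or day 4 (orange triangles down). The microglial sum lies at 47300 CPM or more in all 9 libraries, and the neutrophil sum is highest in PL replicate 3, at 21.1 CPM.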

How the data were processed

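The deposited table holds raw counts per gene for 29 libraries, made by the authors with tools that include TopHat and HTSeq 0.11.0, with cutadapt 2.10, on build GRCm39, per the submitters' processing notes. The strand setting is not given in the sources used here, so a gene and its antisense partner cannot be told apart, and reads of near copies may be split. The RNA quality number is a score the authors measured before library preparation and deposited with the RNA concentrations. From the counts, edgeR 4.0.16 in R 4.3.3 fitted 1 coefficient per group over all 29 libraries (filterByExpr, TMM, quasi-likelihood test, Benjamini-Hochberg adjustment over 16632 of 36982 genes). Every adjusted p in the text is from this main fit, except those between sorting days. The results by sorting day are from a second fit of the same kind over all 29 libraries, in which PL had 1 coefficient per sorting day. No gene row was blank. DESeq2 1.42.0, limma 3.58.1 (voom), other scaling and filters, both sorting days, RNA quality as a covariate and each library left out were alternatives. Only the main fit, DESeq2 and voom were also run on simulated data. Bounds for genes without PP counts take 3 counts over the group, a floor of 0.0756 CPM. No pair of libraries of a group agreed within sampling noise (chi-square per degree of freedom 6.3 to 25.6 over genes with 20 counts or more). The comparison, the gene lists and the rule for named genes were chosen with earlier results of these data known. That rule took the 15 largest rises and falls with no overlap, the 5 smallest p in each direction, up to 5 called members of each list with members against its majority and defining members not called, genes without PP counts, and the extremes of variation and of sorting day. Members named beyond it, such as Il6, Fos, Fkbp5, Tirap, Apoe, Pdk1, Hk3 and the further falls among identity and homeostatic genes, were chosen after their values were seen. Promoter sequences are RefSeq's (GRCm38.p6), matched by symbol. Some genes of these lists count in the totals and are not reported here by name.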

Additional observations from a re-analysis of the deposited data

Results flagged for a closer look

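In 49 of 628 sets of values, each a gene or a sum in 1 group, a library stood far from the rest of its group by Dixon's criterion. Chance alone meets it in about 1 of 20 sets of normally distributed values. A gene with counts in only 1 library of its group always meets it, so the share flagged cannot be set against that rate. PP replicate 1 stood above the other PP libraries for Fos at 42.1 CPM, Egr1 at 60.3, Ier2 at 115, Jun at 708, Dusp1 at 37.4, Klf4 at 6.07, Zfp36 at 352, Fpr1 at 1.61 and Med10 at 54.3 CPM. In the same library the genes called at least 4-fold higher took 0.988% of the counts, and border-associated macrophage markers summed to 55.5 CPM, below the others. These are mostly immediate early and stress genes, and the part of handling in them was not tested.

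PL replicate 2 stood below the other PL libraries for Fos at 52.9 CPM, Gpr84 at 1166, Icam1 at 980, Socs2 at 39.9, Nfkbiz at 66.0, Pim1 at 55.4, Cd40 at 13.4, Rnd1 at 13.6 and Vcam1 at 28.2 CPM. It stood above them for Icosl at 258 and Gsdmd at 79.0 CPM. PL replicate 3 stood apart for Adora2a at 5.68, Klf9 at 30.4, Gfap at 2.49 and A130050O07Rik at 1.66 CPM and for the sum of neutrophil markers at 21.1 CPM. PL replicate 1 did for Slc1a3 at 1003, Cln8 at 30.0 and Zbtb16 at 14.3 CPM, and PL replicate 4 for Fkbp5 at 497 and Hbegf at 26.6 CPM.

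Among the other PP libraries, replicate 2 stood apart for Ccl22 at 0.809, Lpl at 22.2 and Slc39a14 at 16.9 CPM, and replicate 3 for Hgf at 0.380, Il1r2 at 1.39, Rsad2 at 5.95, Tgtp1 at 0.126, Tnip3 at 0.759 and the sum of neutrophil markers at 7.85 CPM. Replicate 4 did for Cd200r1 at 20.7, Cd274 at 12.47 and Steap4 at 0.480 CPM, and replicate 5 for Cd74 at 634, Cxcl1 at 0.252, Lcn2 at 0.126, Ptgs2 at 0.630 and Zbtb16 at 3.02 CPM.

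Between the PL libraries of the 2 sorting days 15 genes differed. No PP library was sorted on day 4, so that a difference in LPS change and one between sorting days cannot be told apart. On the log2 scale the level in PL of day 4 minus that in PL of day 5 was 1.1 for Dock1, 1.13 for Trim23, 0.97 for Lifr, 0.96 for Tmem170b, 0.71 for Mtus1 and 0.66 for Rbm47. It was -1.16 for mt-Rnr2, -1.03 for Ltbr, -0.87 for Gm12918 and for Lars2, -0.86 for Gna12, -0.82 for Gm5148, -0.80 for Rps23-ps1, -0.79 for Gm10288 and -0.68 for Rps6-ps4.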

How the results depend on the processing

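The counts of 2369 rises and 1981 falls stayed within 1.5 times in all alternatives but 1, the falls with only the PL libraries of day 4, at 1271. Replicate numbers did not pair the samples (correlations of -0.057 to 0.028 between same-numbered libraries), and the fit with a replicate block called 1917 and 1594. Leaving out 1 library gave 2046 to 2330 rises and 1713 to 1879 falls. DESeq2's size factors gave 2489 and 1876 with a median log2 fold change of all genes of 0.021 in place of -0.001. Without a filter on low counts there were 2194 and 1711, with the 9 libraries alone 2208 and 1878, and with RNA quality as a covariate 2293 and 1998. DESeq2 called 2645 and 2074 and voom 2290 and 2120. The 15 genes that differed between sorting days were 187 by DESeq2 and 0 to 30 when 1 PL library was left out. The count of 0 for the difference after depletion was 51 by DESeq2, 1 with DESeq2's size factors and 0 to 740 when 1 library was left out. The cause was not tested for any of these.

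Of 384 genes chosen by the rule or named, the alternatives with 1 sorting day ended the most calls, 57 with day 4 and 37 with day 5. Leaving out 1 library ended 15 to 30, the replicate block 25 and the RNA quality covariate 22. Changes of sign were as follows, in log2 fold change. With day 5 alone they came to -0.092 for Lifr, 0.628 for Gfap, -0.066 for Gsdmd, 0.29 for Lars2, -0.003 for Nlrp3, -0.149 for Tbk1 and 0.032 for Trem2. With day 4 alone they came to -0.354 for Gm5148, -0.24 for Rps23-ps1, -0.107 for mt-Rnr2, -0.095 for Cst3, -0.25 for Gm10288, -0.353 for Gm12918, 0.083 for Ikbkg, -0.085 for Rps6-ps4 and -0.448 for Socs1. With RNA quality as a covariate Gm5148 was at -0.031 and Gm12918 at -0.034, Gfap was at 0.002 with DESeq2's size factors and Cst3 at -0.006 with the replicate block. Leaving out 1 library gave -0.08 to 0.25 for Gm5148, -0.016 to 0.841 for Aqp4, -0.045 to 0.066 for Cst3, -1.197 to 0.418 for Gfap, -0.082 to 0.326 for Gm12918, -0.062 to 0.084 for Gsdmd and -0.311 to 0.061 for Lars2. Of these genes Lifr and mt-Rnr2 were called between PL and PP. Depth limits the genes with few counts, Gfap among them.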

Other observations

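Gene families were counted by symbol after their values had been seen, as a description. Of all genes tested 14.2% rose and 11.9% fell. Of 85 cytosolic ribosomal protein genes 34 (40.0%) rose and none fell, with a median log2 fold change of 0.41, which was 0.54 with the PL libraries of day 5 and 0.29 with those of day 4. Of 18 genes of the mitochondrial genome 7 (38.9%) rose and none fell, with a median of 0.43, which was 0.65 with the PL libraries of day 5 and 0.05 with those of day 4. Their summed level was 5220 to 6060 CPM in PP and 6890, 4810, 10100 and 7400 CPM in PL replicates 1 to 4, so that replicate 2 lay below PP and replicate 3, with the lowest RNA quality number of 6.5, stood highest. The part of RNA quality in this was not tested.

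Of 340 zinc finger genes whose symbols start with Zfp, 79 (23.2%) fell and 26 (7.6%) rose, with a median of -0.33, against 11.9% and 14.2% of all genes. The summed level of these symbols went the other way, at 7750 to 8110 CPM in PP and 8790 to 9550 CPM in PL. The sum includes the RNA-decay gene Zfp36, with means of 220.8 CPM in PP and 2235 CPM in PL, and Zfp36 alone rose by more than the sum did. Of its relatives in the sum, Zfp36l1 rose from 199.6 to 638.9 CPM and Zfp36l2 fell from 94.9 to 40.8 CPM. Of 18 histone genes 6 (33.3%) fell and 1 (5.6%) rose, with a median of -1.88, while the summed level of the family was 1400 to 1680 CPM in PP and 1620 to 2270 CPM in PL. Replication-dependent histone mRNAs lack a poly(A) tail, and libraries primed on poly(A) capture them incompletely.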
